A study of Mus musculus with 26 samples.

Results

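Genes of the DNA damage response and of DNA repair were described across 8 mouse blood progenitor populations. The set holds 33 named genes, and 32 of them had a probe set annotated to 1 gene symbol, of 18194 genes measured in this way. Trp53 is not analysed here. For a gene with several probe sets, the brightest on average was read. Levels are on the log2 scale of the deposited table, so a difference of 1 is a doubling of signal. The labels give C57/Bl6 male mice aged 2 months as the source of the RNA, which was hybridised to 26 Affymetrix arrays, 1 per sample. Bone marrow gave MPPFL- (n = 5), MPPFL+, CMP, GMP and CLP (n = 3 each), and thymocytes gave DN1, DN2 and DN3 (n = 3 each). In the usual terms, MPP are multipotent progenitors, CMP and GMP myeloid progenitors, CLP lymphoid progenitors, and DN1 to DN3 early thymocyte stages. No genetic change, treatment, pooling of animals or sort gate is stated in the labels, which also read MMPFL for MPPFL and ALP for CLP. Whether each replicate was a different animal is not stated, and p-values then measure only the spread between these samples, which may be technical.

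A cell reads damaged DNA through the kinases Atm and Atr, which act through Chek1 and Chek2 and through p53, and Mdm2 holds p53 low. Double-strand breaks are mended by homologous recombination, which copies a sister DNA strand and therefore works in cells that replicate, or by end joining, which does not need one. Crosslinks, mismatches, damaged bases and bulky lesions each have a pathway of their own. Early thymocytes also cut and join their T cell receptor genes, and the joining uses the end joining machinery.

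Marker genes were set against the labels. Flt3 averaged 13.31 in MPPFL+, 10.99 in MPPFL- and 13.58 in CLP. Il7r was at 13.23 in CLP, 12.89 in DN2 and 12.62 in DN3, against 2.72 in GMP. Mpo had its highest mean, 16.11, in GMP. It was also at 14.15 in CLP, 14.23 in MPPFL+ and 13.59 in DN1, against 3.82 in DN3. Il2ra was at 13.14 in DN2 and 13.16 in DN3 against 7.37 in DN1. Some arrays stood apart. Xist, an RNA of female cells, was above log2 5 on 4 arrays labelled male, namely DN1 replicates 1 and 3 and DN2 replicates 2 and 3. Eif2s3y, a gene of the Y chromosome, spanned 2.62 to 13.39 in DN1 and 2.17 to 13.39 in DN2. It was at 11.28 or more on every array of the other populations. The label therefore does not settle the sex of the cells on all DN1 and DN2 arrays. CMP replicate 1 was alone in its cluster of poly-A spike-in controls, and it lay below both other CMP arrays for Atm, Atr, Msh3, Msh6, Fancd2 and Topbp1. DN3 replicate 3 shared a cluster with CMP replicates 2 and 3, apart from DN3 replicates 1 and 2. Spike-in means were 10.99 in DN3, 9.01 in CMP, 7.39 in GMP, 4.17 to 4.33 in the other bone marrow populations, and 2.52 or less in DN1 and DN2. The part of these differences in the results was not tested beyond the fits without those arrays or with the spike-in clusters. No cluster held arrays of both populations for DN3 against DN2, DN1 against CLP, CMP against MPPFL+, GMP against CMP or CLP against GMP. In these comparisons spike-in cluster and population cannot be told apart.

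Over the 32 members the mean level was lowest in DN3, at 9.16, against 9.71 to 10.19 in the other populations. For 12 replication-linked members, named below, it was 8.95 in DN3 and 10.20 to 11.18 elsewhere. For the other 20 it was 9.29 in DN3, DN1 and CMP alike. Of 32 measured members, 16 had their lowest population mean in DN3, and 10 had their highest mean in DN2 and 8 in GMP. In 10 members every DN3 array lay below every array of the other populations, where the same held for 5.06% of all genes. All 32 members passed the F-test over the 8 populations (limma, Benjamini-Hochberg adjusted p under 0.05 over all genes), as did 58.1% of all genes, and the largest adjusted p was 0.0283 for Atm. Of the members, 27 were above log2 5 on all arrays, while 30.2% to 37.1% of all probe sets per array were at the lowest value. The widest range of population means was that of Fancd2, 4.02, and the narrowest that of Ogg1, 0.71. In such bulk samples fewer cells of a type and less RNA per cell cannot be told apart.

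**Figure D1:**
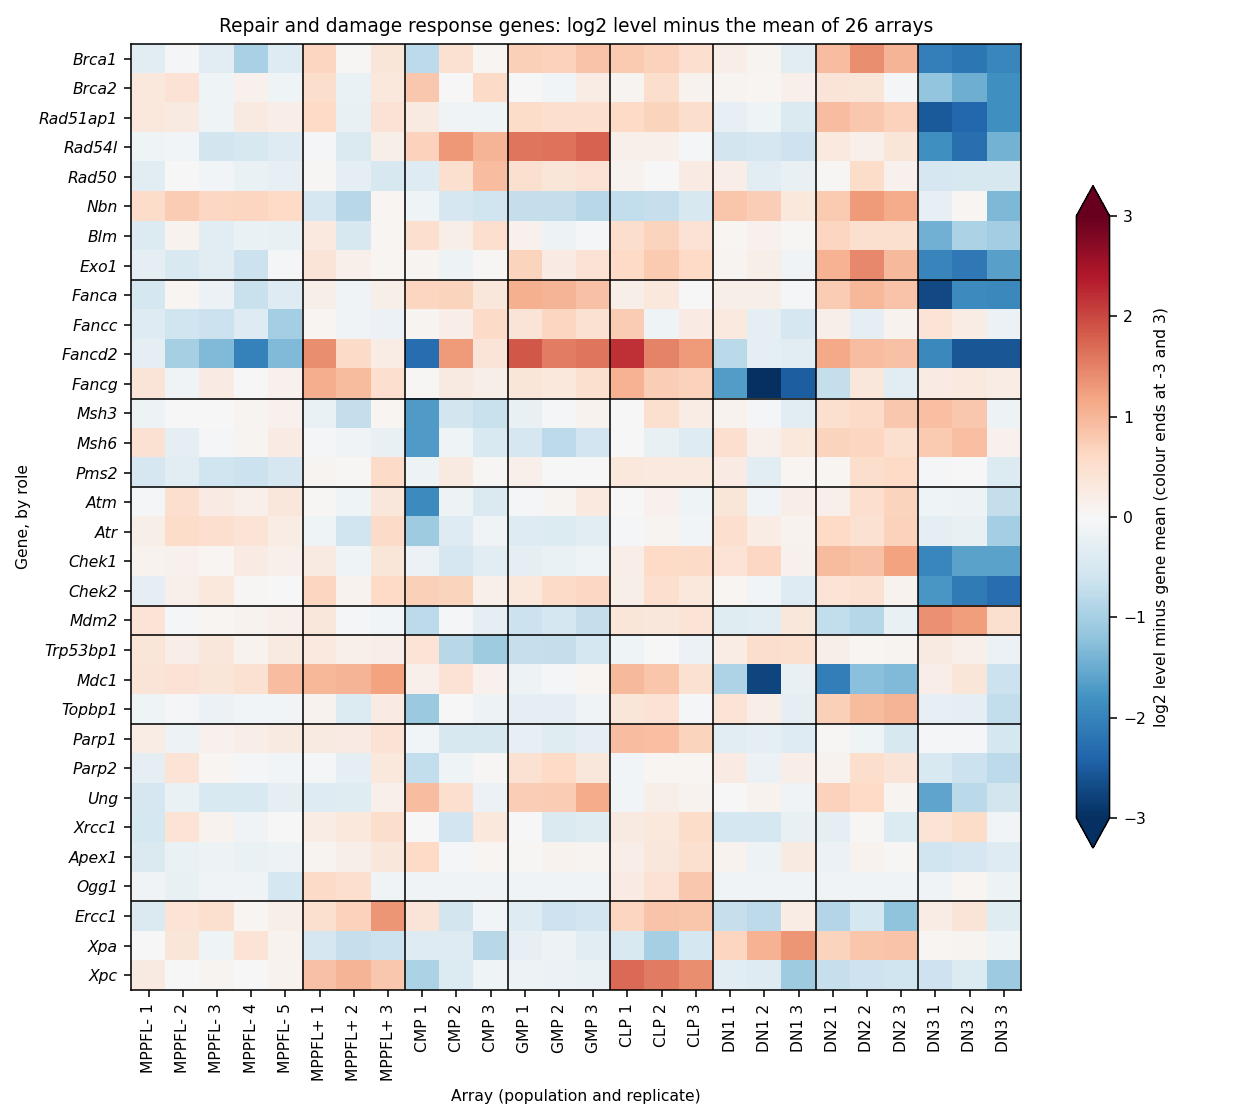
Level of each of 32 genes (rows, grouped by role with black lines) on each of 26 arrays (columns, by population), as log2 level minus the mean of that gene over all arrays. Red is above and blue below that mean; the DN3 columns are blue for most homologous recombination genes, and CMP replicate 1 differs from the other CMP arrays for several genes.

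In 8 comparisons between populations, a member is said to have risen or fallen where the limma fit gave an adjusted p under 0.05 over all genes. From MPPFL- to MPPFL+, 7 members rose and 2 fell, against 10.6% and 5.25% of all genes. From MPPFL+ to CMP, 1 rose and 7 fell, against 5.39% and 18.7%. From CMP to GMP, 7 rose and 0 fell, against 13.8% and 7.63%. From MPPFL+ to CLP, 2 rose and 0 fell, against 2.53% and 4.01%. CLP compared with GMP had 8 members higher and 3 lower, against 16.7% and 11.6% of all genes. From CLP to DN1, 2 rose and 12 fell, against 8.03% and 18.8%. From DN1 to DN2, 7 rose and 0 fell, against 3.99% and 4.12%. From DN2 to DN3, 3 rose and 19 fell, against 16.7% and 14.4%. Read against these backgrounds, the counts lay furthest above the share of all genes for the falls in DN3. The falls in DN1 and the rises in DN2 followed, and the falls in CMP lay close to it. All genes include many near the lowest value, which can hardly be called as fallen. Most members were above log2 5 on all arrays, and shares among genes as bright were not computed. Comparisons that follow each other share arrays (CLP, DN1 and DN2 each serve in several), so a low value in DN1 enters both the fall before it and the rise after it.

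The median difference over the 32 members was -0.78 from DN2 to DN3, 0.33 from DN1 to DN2 and -0.40 from CLP to DN1. The median over all genes was 0 in each comparison. Over genes with a mean above log2 5 it was 0.06, 0.04 and -0.29. From MPPFL+ to CMP the members' median was -0.41 and that of genes above log2 5 was -0.35. Quantile normalization moved the latter by 0.22 and the share of higher genes among those called from 22.4% to 36.4%, and the members then split into 5 higher and 2 lower. For GMP against CMP it moved the median by -0.13 and the share from 64.3% to 55.8%, with 2 members higher and 2 lower, and for CLP against GMP 6 members were then higher and 4 lower.

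**Figure D2:**
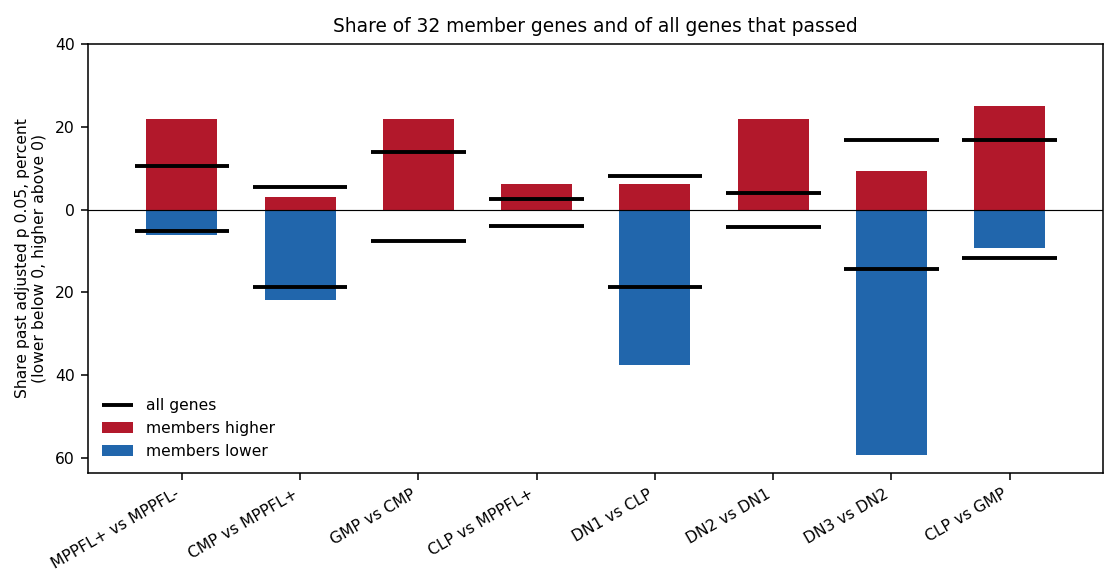
Share of the 32 member genes (bars, red higher and blue lower, in percent) and of all 18194 genes (black lines) past an adjusted p of 0.05 in each comparison. The bar for genes lower in DN3 than in DN2 (19 of 32) reaches furthest past its line, and the bar for genes higher in DN2 than in DN1 (7 of 32) also exceeds its line of 3.99%.

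These counts depended on the arrays used to different degrees. For DN3 against DN2 the count was 22 in all arrays, 16 without the arrays with Xist signal, 16 with the spike-in cluster as a random block, and 20 to 22 when single arrays were left out. For DN2 against DN1, the 7 rises became 1 without the arrays with Xist signal, that of Fancg. Those fits kept 1 DN1 and 1 DN2 array, which were assumed to vary like the other populations. In them the rise of Chek1 in DN2 was 0.31. The calls lost in DN3 were those of Pms2 (-0.20), Apex1 (-0.31), Rad50 (-0.52), Xpa (-0.66), Parp2 (-0.74), Ercc1 (0.96) and Atr (-1.11). That of Fancg (0.98) was gained. DN1 against CLP gave 5 calls with the random block, which kept Nbn, Fancg, Parp1, Xpa and Xpc. The falls of Rad51ap1, Rad54l, Blm, Exo1, Fancd2, Mdc1, Xrcc1, Ogg1 and Ercc1 in DN1 were lost with it. Without the arrays with Xist signal this comparison rests on 1 DN1 array. GMP against CMP gave 1 call without CMP replicate 1, that of Rad51ap1, and 1 without GMP replicate 3, that of Parp2. With the random block, or from the arrays of both populations alone, it gave 0.

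The promoters of the members were searched for the binding motif of E2F factors, which switch on genes for DNA replication. A group of 12 members was taken as replication-linked (Brca1, Brca2, Rad51ap1, Rad54l, Blm, Exo1, Fanca, Fancd2, Msh6, Chek1, Topbp1 and Ung). RefSeq promoters of build GRCm38.p6 were matched by symbol for 27 of the 32 measured members. In the 250 bases before each start, TTTCCCGC, TTTCGCGC, TTTGCCGC and TTTGGCGC were sought on both strands. At least 1 of these 8-letter words was found in 6 of 27 members and in 1.86% of 32851 promoters. The 6 sequences are shown because they include genes that fell in DN3 (Brca2, Chek2 and Topbp1), a gene that rose (Mdc1) and genes that did not pass there (Fancg and Msh3). Capitals mark the words, which read GCGGGAAA or GCGCGAAA when on the opposite strand, and in Msh3 TTTGGCGC overlaps the reverse of TTTCGCGC.
Brca2, chr5:150522423-150522490, + strand: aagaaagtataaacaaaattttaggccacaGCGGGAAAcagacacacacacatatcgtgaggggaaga
Chek2, chr5:110839801-110839868, + strand: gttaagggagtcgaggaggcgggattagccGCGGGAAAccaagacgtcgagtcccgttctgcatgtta
Topbp1, chr9:103305168-103305235, + strand: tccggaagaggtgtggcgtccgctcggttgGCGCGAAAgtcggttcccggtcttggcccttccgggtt
Mdc1, chr17:35841452-35841497, + strand: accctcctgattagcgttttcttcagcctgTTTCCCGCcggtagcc
Fancg, chr4:43010316-43010383, - strand: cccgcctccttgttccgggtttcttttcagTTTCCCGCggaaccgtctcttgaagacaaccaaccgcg
Msh3, chr13:92355164-92355235, - strand: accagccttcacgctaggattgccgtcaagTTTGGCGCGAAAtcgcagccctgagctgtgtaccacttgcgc

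The word TTTCCCGC was in 4 members (Brca2, Chek2, Fancg and Mdc1) and in 0.895% of all promoters. It began 168 bases before the start of Brca2, 152 before that of Chek2, 52 before that of Fancg and 16 before that of Mdc1. TTTCGCGC was in Msh3 and Topbp1 (0.256% of all), TTTGGCGC in Msh3 (0.417%) and TTTGCCGC in 0 members (0.338%). Of the 12 replication-linked genes, 10 had a promoter entry, and 2 of these held a word, Brca2 and Topbp1. Brca1, Rad51ap1, Fanca and Chek1, which fell further in DN3, held none in this window. The word CCAAT, the core of the binding sequence of NF-Y, was in 16 of 27 members and in 33.8% of all promoters. A match describes the letters of the window and says nothing of binding in these cells.

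Of the homologous recombination genes, 8 of 8 fell from DN2 to DN3, with a median difference of -1.92. From DN1 to DN2, 4 rose and 0 fell. Of all genes, 14.4% fell in DN3, and 3.99% rose and 4.12% fell in DN2. Brca1, which with its partners starts the repair of a break by copying, was at 8.64, 8.52 and 8.74 in DN3, at 11.63, 12.09 and 11.71 in DN2 and at 10.89, 10.78 and 10.35 in DN1. No DN3 array came near any other array, of which the lowest was at 9.73 in MPPFL-. Brca1 fell by 3.18 on the log2 scale from DN2 to DN3, a 9.03-fold difference (SE 0.25, adjusted p = 9.04e-09, limma). It rose by 1.14 from DN1 to DN2 (SE 0.25, adjusted p = 0.00696). Of its 3 other probe sets, 0 passed in the fall and 1 in the rise, in the same direction. In the mean of all its probe sets the fall was smaller, a difference of -1.15 (adjusted p = 0.00149), and the rise was 0.80 and did not pass. Brca1 also rose by 0.76 from MPPFL- to MPPFL+ (adjusted p = 0.0276, and 1.21 in the mean of its probe sets) and by 0.85 from CMP to GMP (adjusted p = 0.021). The former missed the threshold without MPPFL- replicate 4 (adjusted p = 0.0718), MPPFL+ replicate 1 (0.161) or MPPFL+ replicate 3 (0.0695), and the latter without CMP replicate 1 (a rise of 0.50, adjusted p = 0.15) or GMP replicate 3 (0.0688).

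Rad51ap1, which promotes strand pairing during recombination, was at 9.20, 9.36 and 9.88 in DN3, against 12.66, 12.54 and 12.42 in DN2 and 11.48, 11.59 and 11.29 in DN1. Its fall of 3.06 in DN3 (SE 0.18, adjusted p = 1.24e-10) was shared by 3 of 3 other probe sets. It fell by 0.87 from CLP to DN1 (adjusted p = 0.00115) and rose by 1.09 from DN1 to DN2 (adjusted p = 0.000561). The groups did not overlap in any of these steps. Exo1, a nuclease that trims broken ends, was at 6.77, 6.60 and 7.12 in DN3 and at 9.79, 10.20 and 9.72 in DN2. It fell by 3.07 (SE 0.16, adjusted p = 1.48e-11), after a fall of 0.61 from CLP to DN1 (adjusted p = 0.00643) and a rise of 1.11 from DN1 to DN2 (adjusted p = 0.0001). The mean of its probe sets gave differences of -1.61 in DN3 (adjusted p = 6.03e-07) and 0.73 in DN2 (0.011). In that mean the fall from CLP to DN1 was a difference of -0.42 and did not pass (0.087). Exo1 also rose by 0.55 from MPPFL- to MPPFL+ (adjusted p = 0.0109, and 0.0787 without MPPFL+ replicate 1), where 1 of its 2 other probe sets passed in the opposite direction and their mean gave 0.24 (0.386), and by 0.45 from CMP to GMP (adjusted p = 0.0484). The last call was lost without any of CMP replicates 1, 2 and 3 (0.0606, 0.125 and 0.068) or GMP replicates 1 and 3 (0.207 and 0.0944).

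Rad54l, a motor protein that acts on DNA during strand pairing, differed from these in being highest in the myeloid populations. It was at 11.85, 11.86 and 12.01 in GMP and 10.92, 11.55 and 11.26 in CMP, above every array of the other populations, of which the highest was at 10.61 in DN2. Rad54l rose by 1.10 from MPPFL+ to CMP (SE 0.19, adjusted p = 0.000228) and was lower by 1.58 in CLP than in GMP (a difference of -1.58, SE 0.19, adjusted p = 1.97e-06). The rise of 0.66 from CMP to GMP (adjusted p = 0.0154) was lost without CMP replicate 1 (0.0929) or GMP replicate 3 (0.057), and was 0.10 in the mean of its 4 probe sets and 0.38 after quantile normalization. In the thymus it was at 9.68, 9.73 and 9.62 in DN1, 10.53, 10.39 and 10.61 in DN2 and 8.40, 7.97 and 8.82 in DN3, which gave a rise of 0.83 (adjusted p = 0.00779) and then a fall of 2.11 (SE 0.19, adjusted p = 4.06e-08). Its fall of 0.65 from CLP to DN1 (adjusted p = 0.0133) was a difference of 0.08 in that mean.

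Brca2, which is needed for repair by copying and whose promoter holds TTTCCCGC on the opposite strand, was at 9.54, 9.25 and 8.86 in DN3 and between 10.52 and 11.51 on the other 23 arrays. It fell by 1.73 from DN2 (SE 0.23, adjusted p = 5.92e-06) and passed in no other comparison. Blm, a helicase that resolves recombination structures, was at 8.46, 8.94 and 8.85 in DN3 and 10.53, 10.39 and 10.39 in DN2, a fall of 1.68 (SE 0.16, adjusted p = 1.41e-07). Its means in CLP and DN2 were both 10.44. CLP was higher than MPPFL+ by 0.58 (adjusted p = 0.036) and than GMP by 0.57 (0.0115), and Blm then fell by 0.47 in DN1 (0.0397). These smaller differences of Blm depended on single arrays. Against MPPFL+ the call was lost without MPPFL+ replicate 2 (a difference of 0.36, adjusted p = 0.25) or 3 (0.0517) or any CLP array (0.0844, 0.142 and 0.0602 for replicates 1 to 3). Against GMP it was lost without GMP replicate 2 (0.053) or CLP replicate 2 (0.0547), and in DN1 against CLP without any array of either population (0.0753, 0.141 and 0.0526 for CLP and 0.0833, 0.066 and 0.0922 for DN1).

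Rad50 and Nbn encode parts of the complex that first holds broken ends together, and they did not move as a pair. Rad50 had a narrow range, with population means from 10.13 in DN3 to 11.04 in GMP, and its fall of 0.73 in DN3 (adjusted p = 0.0183) was lost without DN2 replicate 2 (0.0973) and was -0.36 in the mean of its probe sets (0.00429). Nbn was high in MPPFL- (10.26, 10.48, 10.34, 10.37 and 10.31), in DN1 (10.54, 10.45 and 10.03) and in DN2 (10.51 at the lowest). Every array of MPPFL+, CMP, GMP, CLP and DN3 lay below these, between 8.36 in DN3 and 9.78. It fell by 1.06 from MPPFL- to MPPFL+ (SE 0.24, adjusted p = 0.00416), rose by 1.26 from CLP to DN1 (SE 0.27, adjusted p = 0.00126) and fell by 1.57 from DN2 to DN3 (SE 0.27, adjusted p = 0.00012). DN3 replicate 3, at 8.36, was well below the 9.48 and 9.78 of the other DN3 arrays.

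**Figure D3:**
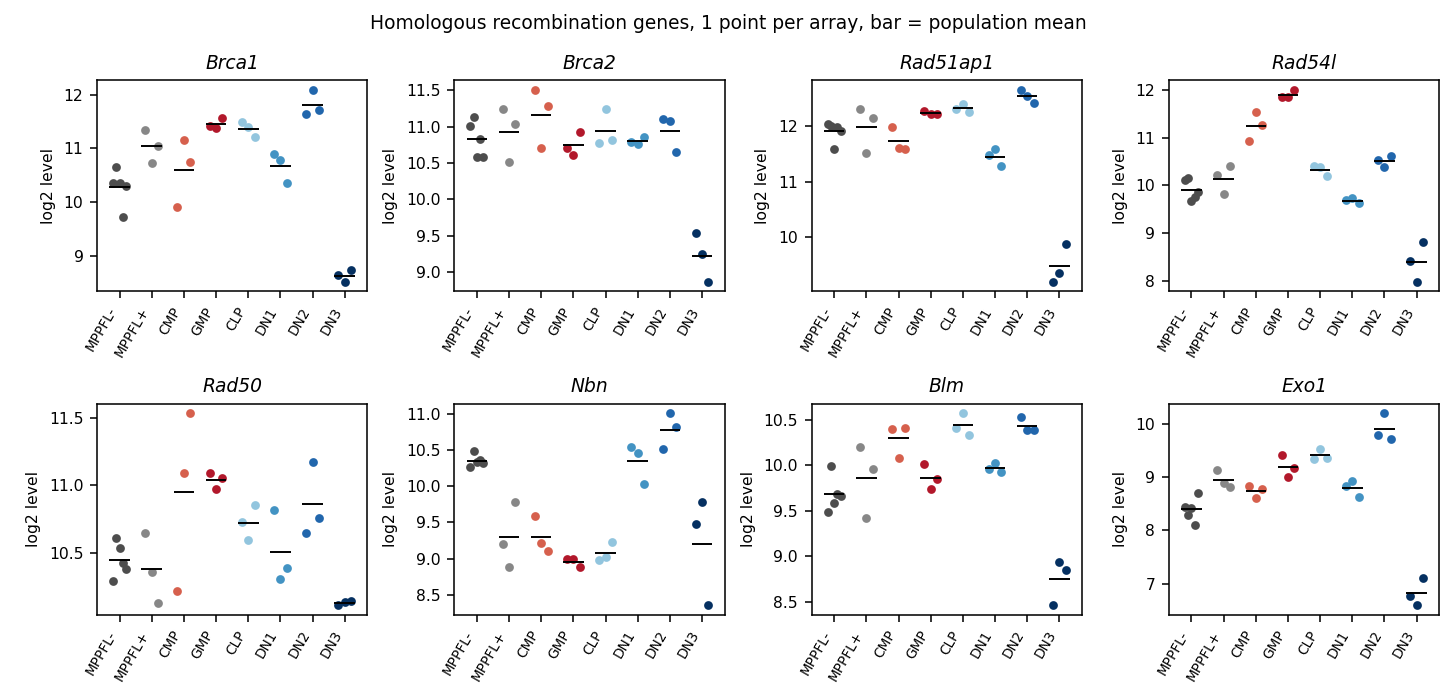
Log2 level of 8 homologous recombination genes on every array (points), by population (horizontal axis, 5 MPPFL- arrays and 3 of each other population), with population means as bars; vertical axes are scaled per gene. DN3 points lie below all others for Brca1, Brca2, Rad51ap1, Rad54l, Blm and Exo1, while Nbn is high in MPPFL-, DN1 and DN2.

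The Fanconi anaemia pathway removes crosslinks between DNA strands. Fanca and Fancg belong to its core complex, with Fancc, and this complex tags Fancd2, the protein that directs the repair. Fancd2 had the widest range of all members. It was at 8.65, 8.32 and 8.40 in GMP and 8.99, 8.28 and 8.07 in CLP, against 4.86, 4.23 and 4.22 in DN3 and 4.77 to 6.52 in MPPFL-. In CMP its arrays spread from 4.49 on replicate 1 to 8.06 on replicate 2. Fancd2 rose by 1.91 from MPPFL- to MPPFL+ (SE 0.54, adjusted p = 0.0198) and fell by 2.14 from CLP to DN1 (SE 0.61, adjusted p = 0.0118). From DN2 to DN3 it fell by 3.34, a 10.1-fold difference (SE 0.61, adjusted p = 0.000236). In the mean of its 4 probe sets the differences were smaller, 0.95 in MPPFL+, -1.19 in DN1 and -1.90 in DN3, and passed (adjusted p = 0.0157, 0.00448 and 4.49e-05). The rise in MPPFL+ missed the threshold without MPPFL- replicate 4 (0.052) or MPPFL+ replicate 1 (0.121) or 2 (0.0554), and the fall in DN1 without CLP replicate 1 (0.0567). The rise of 1.88 from CMP to GMP (adjusted p = 0.032) became 0.84 without CMP replicate 1 (adjusted p = 0.213), was 1.02 in the mean of the probe sets (0.0165) and was lost without any GMP array (0.0885, 0.0621 and 0.0684).

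Fanca was at 4.90, 5.70 and 5.66 in DN3 and at 6.94 or more on every other array. It rose by 0.77 from DN1 to DN2 (adjusted p = 0.0138) and fell by 3.06 from DN2 to DN3 (SE 0.19, adjusted p = 2.15e-10). The rise was lost without DN1 replicate 3 (0.0661) or DN2 replicate 2 (0.0653). Like Rad54l, it had its highest mean in GMP, 8.59, with CLP 0.82 below that (a difference of -0.82, SE 0.19, adjusted p = 0.00233). The mean of its 2 probe sets gave differences of 0.38 in DN2 (0.0159), -1.53 in DN3 (3.76e-10) and -0.45 in CLP against GMP (0.00148). Fancg followed another course and was low in DN1 alone. It was at 5.15, 3.58 and 4.35 in DN1, 7.85, 7.55 and 7.51 in CLP, 6.10, 7.15 and 6.49 in DN2 and 7.08, 7.11 and 7.05 in DN3. DN1 did not overlap any other population. Fancg fell by 3.28 from CLP to DN1, a 9.71-fold difference (SE 0.28, adjusted p = 8.05e-08, shared by 1 of 1 other probe sets), and rose by 2.22 from DN1 to DN2 (SE 0.28, adjusted p = 2.73e-05). From the DN1 and DN2 arrays alone the rise had an adjusted p of 0.18, and in the mean of its probe sets it was 1.20 (0.0147). Fancc was dim, at 4.71 at the lowest in MPPFL- and with its highest mean, 6.22, in GMP, and passed in none of the 8 comparisons.

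Of the 3 mismatch repair genes, Pms2 passed in 2 comparisons, Msh3 in 1 and Msh6 in 0. Msh6, whose protein takes part in finding mismatches, was among the brightest members, and its highest mean was in DN3 (13.18, 13.30 and 12.53). DN2 was at 13.07, 13.05 and 12.88, and the difference between them was 0.00 (SE 0.29, adjusted p = 1). Msh3, which takes part in finding larger loops, was between 8.48 and 10.11 except on CMP replicate 1, its lowest array. Its rise of 0.91 from CMP to GMP (adjusted p = 0.0238) became 0.54 without that array (0.169), was lost without GMP replicate 2 (0.059) or 3 (0.0854), and was -0.03 in the mean of its 4 probe sets. Pms2, which makes the cut after a mismatch is found, rose by 0.73 from MPPFL- to MPPFL+ (SE 0.15, adjusted p = 0.00179), but 1 of its 2 other probe sets passed in the opposite direction, and the mean of the probe sets gave -0.13. It fell by 0.54 in DN3 (adjusted p = 0.0182), which was lost without DN2 replicate 2 (0.0712) or 3 (0.0941) or DN3 replicate 3 (0.104).

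Among the damage kinases the effectors Chek1 and Chek2, which stop the cell cycle, had ranges of population means of 2.74 and 2.56, against 1.28 and 1.09 for Atm and Atr, which sense the damage. Chek1 was at 9.44, 9.80 and 9.79 in DN3 and at 12.35, 12.29 and 12.61 in DN2, the highest level of any population. The fall was 2.74 (SE 0.15, adjusted p = 2.35e-11), a 6.68-fold difference, and 3 of 4 other probe sets passed in the same direction. In the mean of its 5 probe sets the difference was -1.79 (adjusted p = 3.57e-08). The rise of 0.63 from DN1 to DN2 (adjusted p = 0.00897) was lost without DN1 replicate 3 (0.0646) or DN2 replicate 3 (0.0567), and was 0.96 in that mean. Chek1 was low in the myeloid populations, at 11.22, 10.90 and 11.06 in CMP and 11.12, 11.20 and 11.26 in GMP. It was 0.67 higher in CLP than in GMP (SE 0.15, adjusted p = 0.00138), but 0.23 in the mean of its probe sets (0.352). Its fall of 0.51 from MPPFL+ to CMP (adjusted p = 0.0139) was lost without MPPFL+ replicate 1 (0.0589) or 3 (0.0748) or CMP replicate 2 (0.0544), and was -0.31 after quantile normalization (0.204). Chek2, whose promoter holds TTTCCCGC on the opposite strand, lay between 9.06 and 10.16 on all arrays but those of DN3, which were at 7.71, 7.33 and 7.16. It fell by 2.37 there (SE 0.19, adjusted p = 7.64e-09) and passed in no other comparison.

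Atr fell by 1.09 from DN2 to DN3 (SE 0.26, adjusted p = 0.00239), from 10.72, 10.57 and 10.80 to 9.82, 9.90 and 9.11. Atm was at 10.40, 10.77 and 10.91 in DN2 and 10.13, 10.10 and 9.53 in DN3, a difference of -0.77 that did not pass (adjusted p = 0.0665). CMP replicate 1, at 8.34, was its lowest array, beside 10.10 and 9.81 on the other CMP arrays. Atm was lower by 0.92 in CMP than in MPPFL+ (a difference of -0.92, adjusted p = 0.0363) and higher by 0.94 in GMP than in CMP (adjusted p = 0.035). Without that array the differences were -0.38 and 0.40 (adjusted p = 0.238 and 0.23), and in the mean of its probe sets -0.49 and 0.30 (0.156 and 0.453). The first was also lost without MPPFL+ replicate 1 (0.073) or 3 (0.127), and the second without any GMP array (0.0508, 0.0731 and 0.117).

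Mdm2, the ligase that marks p53 for breakdown and is itself switched on by p53, went against the main trend. It was at 9.57, 9.45 and 8.67 in DN3, above every other array, of which the highest was at 8.60 in CLP, and at 7.47, 7.33 and 7.98 in DN2. The rise was 1.64 (SE 0.24, adjusted p = 2.03e-05), a 3.11-fold difference, but 0 of its 2 other probe sets passed and the mean of its probe sets gave 0.51 (0.0246). Mdm2 was also higher in CLP (8.55, 8.54 and 8.60) than in GMP (7.55, 7.66 and 7.49), with an adjusted p of 0.00284, but the mean of its probe sets differed by 0.10 (0.944). A list drawn up beside the members held 21 measured p53 target genes. Of these, 6 rose and 2 fell from DN2 to DN3, against 16.7% and 14.4% of all genes. Their median difference was 0.02. The target genes with the largest change were Btg2, a growth inhibitor (3.38, adjusted p = 0.000222), Zmat3, an RNA-binding protein (3.11, adjusted p = 1.97e-07), and Mdm4, a second inhibitor of p53 (2.02, adjusted p = 0.000825). Btg2 also stands in the list of stress and immediate early genes given below. It rose by 2.40 from CLP to DN1 and fell by 2.23 from DN1 to DN2. In CLP against GMP, 5 of the target genes were higher and 2 lower, against 16.7% and 11.6% of all genes. The largest differences were those of Cdkn1a, the cell cycle inhibitor p21 (3.72, adjusted p = 1.39e-05), Trp53inp1 (3.22, adjusted p = 2e-09) and Gadd45a, which was lower (-2.79, adjusted p = 1.09e-05).

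Mediators gather repair proteins at a break. Mdc1, which binds marked chromatin there, was at 7.07, 5.25 and 7.77 in DN1 and 5.92, 6.75 and 6.68 in DN2, while all other arrays lay between 7.34 and 9.20. DN1 and DN2 thus overlapped each other, and only DN1 replicate 3 overlapped any other population. Mdc1 fell by 2.05 from CLP to DN1 (SE 0.42, adjusted p = 0.00091) and rose by 1.52 from DN2 to DN3 (SE 0.42, adjusted p = 0.00821). The first difference was -1.33 without DN1 replicate 2 and -3.49 without the arrays with Xist signal, and passed in both cases. With the spike-in cluster as a random block neither passed (adjusted p = 0.0915 and 0.189). Topbp1, which activates Atr, was highest in DN2 (13.67, 13.89 and 13.97) and fell by 1.30 to DN3 (12.72, 12.69 and 12.22; SE 0.24, adjusted p = 0.000256). Trp53bp1, which favours end joining over copying, was at 13.11 to 13.58 in MPPFL-, MPPFL+, DN1 and DN2 and at 12.36, 12.35 and 12.52 in GMP. Its CMP arrays spanned 11.99 to 13.47, with replicate 1 highest. The fall of 0.71 from MPPFL+ to CMP (adjusted p = 0.033) overlapped between groups and became -1.16 without CMP replicate 1 and -0.42 without CMP replicate 3 (adjusted p = 0.187). It was also lost without CMP replicate 2 (0.128) or any MPPFL+ array (0.0939, 0.0608 and 0.0684).

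Single-strand break and base excision repair removes damaged bases. Parp1, which senses nicks, was brightest in CLP, at 13.85, 13.83 and 13.59, above every other array. It was 1.13 higher in CLP than in GMP (SE 0.15, adjusted p = 4.96e-06) and fell by 1.18 from CLP to DN1 (SE 0.15, adjusted p = 5.02e-06), with 2 of 3 other probe sets passing with that fall. It was 0.66 lower in CMP than in MPPFL+ (a difference of -0.66, adjusted p = 0.00211), although the mean of its probe sets gave -0.15 (0.625). The difference of 0.53 between CLP and MPPFL+ (adjusted p = 0.0316) was lost without MPPFL+ replicate 1 (0.107) or 2 (0.115) or CLP replicate 1 (0.125) or 2 (0.112). Parp2, its relative, rose by 0.74 from CMP to GMP (adjusted p = 0.00995, but 0.0718 without CMP replicate 1, and a rise of 0.48 with 0.06 after quantile normalization) and fell by 0.97 from DN2 (10.68, 11.10 and 10.95) to DN3 (10.09, 9.93 and 9.79; SE 0.20, adjusted p = 0.000614).

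Ung, which cuts uracil out of DNA, was highest in GMP (12.77, 12.78 and 13.13) and lowest in DN3 (10.45, 11.20 and 11.48). It fell by 1.43 from DN2 to DN3 (SE 0.25, adjusted p = 0.000175), and it was lower in CLP than in GMP by 0.81 (a difference of -0.81, adjusted p = 0.0198), which was lost without GMP replicate 3 (0.0879) or CLP replicate 1 (0.0718). Apex1, the nuclease of the next step, had means from 12.84 in DN3 to 13.68 in CLP. Its rise of 0.43 from MPPFL- to MPPFL+ (adjusted p = 0.0221) was lost without MPPFL- replicate 1 (0.0542) or MPPFL+ replicate 2 (0.0679) or 3 (0.109), and its fall of 0.48 in DN3 (adjusted p = 0.0109) without DN2 replicate 2 (0.0513) or DN3 replicate 1 (0.0501). Xrcc1, the scaffold of this pathway, fell by 0.80 from CLP to DN1 (adjusted p = 0.0123, and 0.0568 without CLP replicate 3). Its difference of 0.64 between CLP and GMP (adjusted p = 0.043) was lost without any CLP array (0.0602, 0.0741 and 0.15) or GMP replicate 2 (0.147) or 3 (0.124).

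Ogg1, which removes oxidised guanine, was dim. Its probe set lay within 0.02 of 5.05 on 17 of 26 arrays. It was above that in CLP (5.40, 5.57 and 5.96), on 2 of 3 MPPFL+ arrays (5.72 and 5.66) and on 1 DN3 array (5.21). Ogg1 passed as higher in MPPFL+ than in MPPFL- (0.54, adjusted p = 0.00736) and in CLP than in GMP (0.60, 0.00406), and as lower in CMP than in MPPFL+ (-0.43, 0.0416) and in DN1 than in CLP (-0.60, 0.00453). The first was lost without MPPFL+ replicate 1 (0.0702) or 2 (0.0655), and the third without those arrays (0.217 and 0.183) or any CMP array (0.0795, 0.0702 and 0.0716), and it was -0.64 without MPPFL+ replicate 3. In the mean of its 2 probe sets these 4 differences were 0.31, 0.36, -0.27 and -0.36, of which the first and the third did not pass, and after quantile normalization the second was 0.35 (0.198) and the third -0.17 (0.681).

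Nucleotide excision repair genes divided into separate courses. Xpc, which finds bulky lesions, was highest in CLP (13.06, 12.94 and 12.76), followed by MPPFL+ (12.24, 12.40 and 12.18), and neither overlapped any other population. It rose by 0.81 from MPPFL- to MPPFL+ (SE 0.17, adjusted p = 0.0024), fell by 1.40 to CMP (SE 0.19, adjusted p = 2.4e-05), was 1.72 higher in CLP than in GMP (SE 0.19, adjusted p = 8.04e-07) and fell by 2.14 from CLP to DN1 (11.05, 10.98 and 10.31; SE 0.19, adjusted p = 1.24e-07). It did not pass between the thymic stages. These 4 calls of Xpc held in all alternatives run.

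Xpa, which checks the lesion before the cut, had its lowest mean in CLP and its highest in DN1. It was at 8.15, 8.57 and 8.83 in DN1 and 8.18, 8.34 and 8.37 in DN2, above every array elsewhere, and at 7.06, 6.52 and 6.99 in CLP. It fell by 0.76 from MPPFL- to MPPFL+ (SE 0.15, adjusted p = 0.0017), rose by 1.66 from CLP to DN1 (SE 0.17, adjusted p = 7.44e-07) and fell by 0.78 from DN2 to DN3 (SE 0.17, adjusted p = 0.0016). In the last step 1 of its 2 other probe sets passed in the opposite direction, and the mean of the probe sets gave 0.15. That mean gave -0.30 in MPPFL+ (0.0329) and 0.65 in DN1 (0.000102). Ercc1, part of the nuclease that cuts beside the lesion, was at 9.71, 9.92 and 10.56 in MPPFL+ and 9.87, 10.08 and 10.07 in CLP, against 8.36, 8.71 and 8.02 in DN2. Ercc1 was 1.30 higher in CLP than in GMP (SE 0.31, adjusted p = 0.00256) and fell by 1.19 from CLP to DN1 (adjusted p = 0.00587). Its rise of 0.95 from DN2 to DN3 (adjusted p = 0.0217) was lost without DN2 replicate 3 (0.102) or DN3 replicate 1 (0.0726) or 2 (0.0988). Its fall of 0.91 from MPPFL+ to CMP (adjusted p = 0.035) was lost without MPPFL+ replicate 2 (0.055) or 3 (0.177) or CMP replicate 2 (0.141) or 3 (0.0618). In the mean of its 4 probe sets these differences were 0.56, -0.63, 0.59 and -0.48, and all 4 passed.

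**Figure D4:**
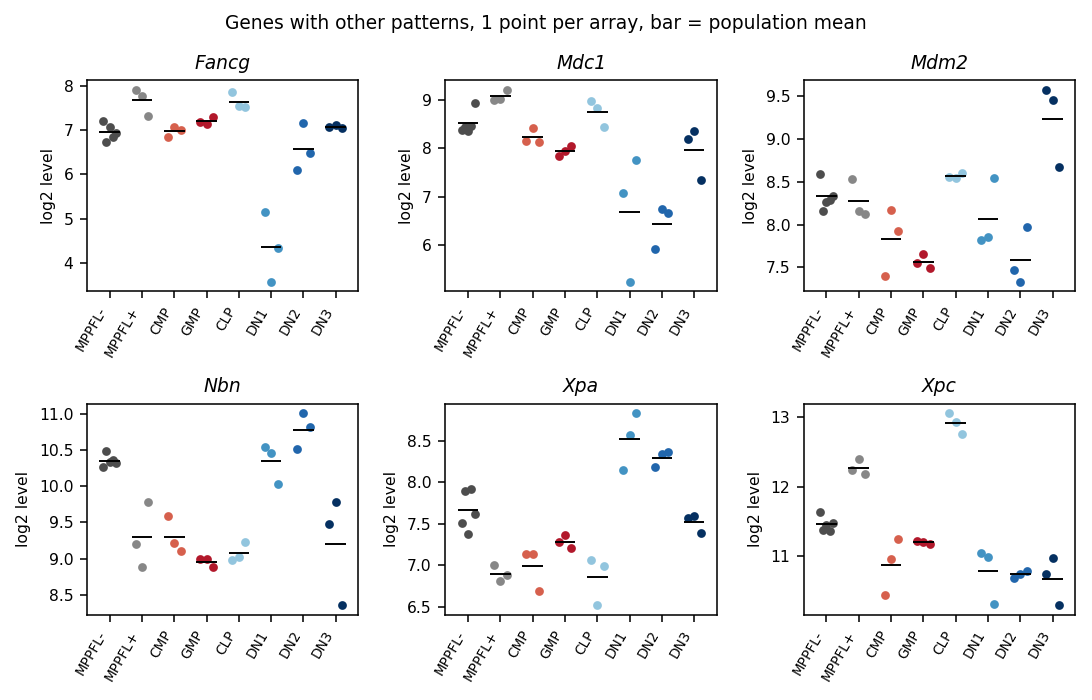
Log2 level on every array (points) by population, with population means as bars, for 6 genes that did not follow the homologous recombination genes; vertical axes are scaled per gene. Fancg is low in DN1, Mdc1 in DN1 and DN2, Mdm2 is highest in DN3, Nbn and Xpa are high in DN1 and DN2, and Xpc is highest in CLP.

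Proliferation moved with many of these values. In a list of proliferation genes, 29 of 30 were measured, and their mean level was 9.24 to 9.61 on the DN3 arrays, 11.95 to 12.13 in DN2, 11.05 to 11.23 in DN1, 11.97 to 12.09 in CLP, 12.23 to 12.28 in GMP, 11.38 to 11.71 in CMP, 11.51 to 11.90 in MPPFL+ and 11.03 to 11.21 in MPPFL-. From DN2 to DN3, 27 fell and 0 rose, from DN1 to DN2 18 rose and 0 fell, and from CLP to DN1 17 fell and 0 rose. Of all genes, 14.4% fell and 16.7% rose in DN3, 3.99% rose and 4.12% fell in DN2, and 18.8% fell and 8.03% rose in DN1. The part of the proliferation genes in the members' differences was not tested. Of the 12 members taken as replication-linked, 11 fell from DN2 to DN3, all but Msh6, with a median difference of -2.42. Of the 20 other measured members 8 fell and 3 rose, with a median of -0.08. From DN1 to DN2, 6 of the 12 rose, and of the 20 others Fancg alone. A test of the difference between the groups was not made. The members and lists were chosen with earlier results of these data known, so these counts only describe the values.

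Over 26 arrays, which share their population and processing, the correlation of a member with the mean of the proliferation genes had a median of 0.84 for these 12 (range -0.43 for Msh6 to 0.95 for Brca1) and of 0.20 for the other 20 (range -0.70 for Mdm2 to 0.91 for Chek2). Over the 23 arrays outside DN3 the medians were 0.66 and 0.17. Brca2 and Chek1, which fell clearly in DN3, correlated at only 0.07 and 0.11 outside it. Among population means, pairs of the 12 genes correlated with a median r of 0.76 (66 pairs over 8 populations), and pairs of the other 20 with a median of 0.08 (190 pairs). DN3, where most of the 12 had their lowest mean, is among these 8 populations. The pair values were not computed without it.

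**Figure D5:**
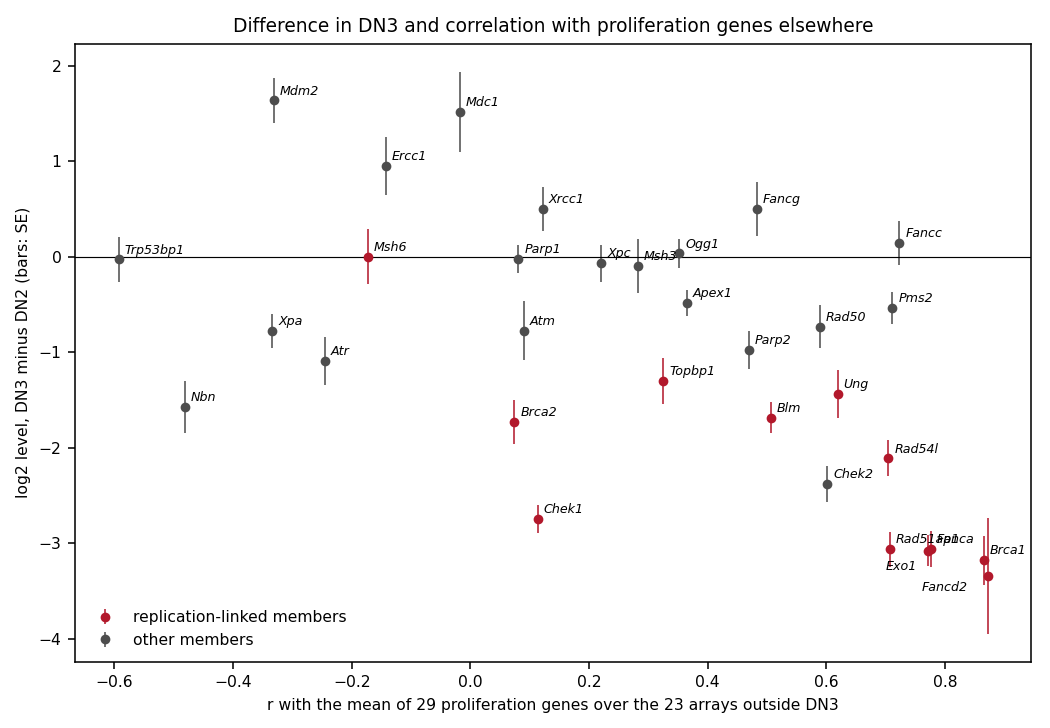
For each member, the Pearson correlation of its log2 level with the mean of 29 proliferation genes over the 23 arrays outside DN3 (horizontal) and its difference between DN3 and DN2 in log2 units with the standard error of the fit (vertical). Red points are the 12 genes taken as replication-linked. Brca1 and Fancd2 combine high correlations with large falls, while Chek1 and Brca2 fell with correlations of 0.11 and 0.07.

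Other genes of the same pathways were read from lists drawn up with the members. Of all genes, 14.4% fell and 16.7% rose from DN2 to DN3. The shares that rose and fell were 3.99% and 4.12% from DN1 to DN2, and 8.03% and 18.8% from CLP to DN1. The alternatives were run for the members only. No call of a listed gene outside them, p53 targets included, was therefore checked in this way. Of 25 measured genes of recombination and the Fanconi pathway outside the set, 16 fell and 2 rose from DN2 to DN3, 11 rose and 0 fell from DN1 to DN2, and 0 rose and 11 fell from CLP to DN1. The largest falls in DN3 were those of Eme1, a nuclease subunit (-4.73, SE 0.32, adjusted p = 9.49e-10), Rad54b (-4.54, adjusted p = 7.98e-07) and Gen1, which cuts crossed strands (-4.03, adjusted p = 2.25e-08). Of 19 checkpoint and mediator genes, 11 fell and 3 rose in DN3, led by the phosphatase Cdc25c (-5.51, adjusted p = 7.2e-12) and by Clspn, the Chek1 adaptor (-1.97, adjusted p = 2.05e-08). Among 18 other mismatch and base excision repair genes 6 fell and 5 rose, including the polymerase gene Pole (-1.53, adjusted p = 5.42e-05) and the glycosylase gene Neil1 (1.52, adjusted p = 1.46e-05). Among 18 other nucleotide excision repair genes 5 fell and 4 rose, including Rfc1 (-1.54, adjusted p = 1.26e-06), Ercc6 (2.19, adjusted p = 0.00216) and Ddb1 (1.60, adjusted p = 1.16e-05).

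End joining, the other route for double-strand breaks, was read from 7 genes outside the set. Of 6 measured, 4 rose and 0 fell from DN2 to DN3, against 16.7% and 14.4% of all genes, with a median of 0.89. Their mean level was 9.67 to 10.36 in DN3, 9.45 to 9.64 in DN2, 8.36 to 8.94 in DN1 and 7.10 to 7.79 in CMP. Lig4, the ligase that seals the joint, rose by 4.44 from DN1 to DN2 (SE 0.30, adjusted p = 6.34e-09) and by 1.30 from DN2 to DN3 (adjusted p = 0.00225). Nhej1, its cofactor, was dim and rose by 1.28 in DN3, from a mean of 4.73 to 6.01 (SE 0.47, adjusted p = 0.0444). Xrcc6, the end-binding protein Ku70, rose by 1.01 (adjusted p = 0.00621). Xrcc4, the partner of Lig4, was lower in CMP than in MPPFL+ (-2.01, adjusted p = 2.8e-07). In CLP against GMP 5 of the 6 were higher and 0 lower, against 16.7% and 11.6% of all genes. The largest difference was that of Xrcc6 (1.92, adjusted p = 1.33e-05).

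Markers of other cells and of handling also moved between the thymic stages and CLP. Of all genes, 8.03% rose and 18.8% fell from CLP to DN1. The shares were 3.99% and 4.12% from DN1 to DN2, and 16.7% and 14.4% from DN2 to DN3. Of 8 measured dendritic cell and macrophage markers of 9 listed, 5 fell from CLP to DN1 and 3 from DN2 to DN3, and their mean level was 7.02 to 7.27 in CLP, 5.17 to 5.47 in DN1, 3.78 to 4.31 in DN2 and 2.65 to 2.95 in DN3. Cd209a was under log2 3 on all arrays of these 4 populations, Siglech on those of DN1, DN2 and DN3, and Csf1r and Itgax on those of DN3, while Csf1r averaged 12.43 in DN1. Of 16 stress and immediate early genes, which respond to tissue handling, 11 rose from CLP to DN1 and 6 fell from DN1 to DN2. From DN2 to DN3 8 fell and 1 rose, which was Btg2, and 4 fell from CMP to GMP, against 7.63% of all genes. The mean level of the 16 was 10.21 to 12.48 in DN1, 8.71 to 11.58 in DN2 and 6.25 to 8.68 in DN3. It was 8.11 to 8.50 in CLP, 9.07 to 9.76 in CMP and 7.61 to 7.92 in GMP. Of 5 measured natural killer cell markers of 6 listed, 1 rose from CLP to DN1, 1 fell from DN1 to DN2 and 2 fell from DN2 to DN3. Their mean level was 4.03 to 4.21 in CLP, 4.48 to 4.90 in DN1, 3.69 to 3.84 in DN2 and 2.42 to 2.50 in DN3. Ncr1, Prf1 and Il2rb were under log2 3 on all arrays of these 4 populations. Klrd1 averaged 11.33 in CLP, 10.91 in DN1 and 3.40 in DN3, and Gzmb averaged 7.81 in DN2. Of 6 measured erythroid markers of 9 listed, 4 rose from MPPFL+ to CMP, against 5.39% of all genes. Their mean level was 4.39 to 5.10 in CMP and 2.44 to 2.93 in MPPFL+. Hba-a1 was under log2 3 on all arrays of both, while Klf1 averaged 9.11 in CMP. The ribosomal RNA control of the arrays was at 8.57 to 10.32 in DN1 and 7.77 to 8.21 in DN2, against 12.24 to 12.43 in CLP, 12.86 to 13.16 in DN3 and 11.53 to 12.95 in the other populations. The 3' minus 5' signal of the beta-actin and Gapdh controls, a sign of RNA length, was 3.13 to 3.95 in MPPFL-, 2.86 to 2.99 in MPPFL+, 2.03 to 2.41 in CMP, 1.66 to 1.76 in GMP, 2.78 to 3.16 in CLP, 1.64 to 4.18 in DN1, 2.93 to 3.65 in DN2 and 2.22 to 3.64 in DN3. With it as a covariate, DN3 against DN2 again gave 22 calls and GMP against CMP 4. Beyond that covariate, the part of these values in the members' differences was not tested.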

How the data were processed

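Messenger RNA of 26 samples was measured on Affymetrix arrays. Per the labels, RNA was extracted with Trizol and labelled with biotin. The deposited table gives log2 values for 45101 probe sets, as its values show (up to 17.1, array medians 2.74 to 3.05, and a lowest value of 2.17 on 30.2% to 37.1% of probe sets per array). The normalization and background correction by the authors: not given in the sources used here. Values were taken as deposited.

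GEO's platform annotation named 34958 probe sets with 1 gene, 932 with several and 9211 with none; 34754 gene IDs were found in the RefSeq table of GRCm38.p6 and 0 symbols changed. The members and lists were chosen with earlier results of these data known. Of 212 list genes, 190 were measured. Groups came from the titles. All arrays were fitted together with limma 3.58.1 (R 4.3.3; lmFit and eBayes, population as the only term, 18 residual and 0.553 prior degrees of freedom), two-sided, with Benjamini-Hochberg adjustment over 18194 genes. The rule for names takes every member, and from other lists up to 3 genes that passed per comparison, of which the text gives a part. Xist was chosen after its values were seen. Clusters of arrays came from average linkage on the spike-in controls. Promoters were searched in the RefSeq table with Python. The number of arrays limits precision. The fit was tested on simulated data.

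Alternatives were quantile normalization, the mean of all probe sets, every probe set tested, a filter and a floor at log2 5, trend and robust variance, a replicate block, a covariate of 3' minus 5' control signal, the spike-in cluster as a random block or as a restriction, arrays without Xist signal, both populations alone, and each array left out. Same-numbered arrays did not deviate together (24 pairs, r from -0.40 to 0.40, 4 over 0.1), so the numbers were not taken as pairs. The highest correlation between arrays was 0.997, and 0 pairs were identical.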

Additional observations from a re-analysis of the deposited data

Results flagged for a closer look

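In MPPFL-, the only population of over 3 arrays, 4 of 32 members had an array whose gap to the nearest of the others exceeded Dixon's critical value; chance gives about 1 in 20. Rad51ap1 was at 11.60 on replicate 3 and between 11.92 and 12.05 on the others. Mdc1 was at 8.93 on replicate 5, against 8.36 to 8.46. Apex1 was at 12.90 on replicate 1, against 13.13 to 13.19. Ogg1 was at 4.61 on replicate 5, against 4.92 to 5.05. These gaps fell on 3 different arrays.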

How the results depend on the processing

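Of the 80 member calls, 24 held in all alternatives and 49 in every fit that left out a single array, and 36 were lost with the spike-in cluster as a random block (correlation within clusters 0.43). Reversed were Pms2 in MPPFL+ against MPPFL- (-0.13), Msh3 in GMP against CMP (-0.027), Rad54l in DN1 against CLP (0.082) and Xpa in DN3 against DN2 (0.15), each under the mean of all probe sets. Counts of members called moved as follows, and the cause was not tested. MPPFL+ against MPPFL- (9) gave 5 with the replicate block. CMP against MPPFL+ (8) gave 4 with the replicate block, 2 with the random block and 2 from both populations alone. GMP against CMP (7) gave 4 with the replicate block, 4 after quantile normalization, 4 with the 3' to 5' covariate, 0 with the random block and 0 from both populations alone. CLP against MPPFL+ (2) gave 1 with the replicate block, 1 with every probe set tested and 0 from both populations alone. DN1 against CLP (14) gave 5 with the random block and 8 without the Xist arrays. DN2 against DN1 (7) gave 1 without the Xist arrays, 4 from both populations alone and 4 from their spike-in cluster. CLP against GMP (11) gave 3 with the random block and 17 from both populations alone. DN3 against DN2 (22) stayed within 1.5 times, from 16 to 23, in all alternatives run. None of these separates spike-in cluster from population there, because no cluster held arrays of both DN2 and DN3. Leaving out single arrays gave 5 to 10, 5 to 9, 1 to 8, 0 to 1, 12 to 15, 5 to 8, 20 to 22 and 9 to 11 calls, for MPPFL+, CMP, GMP, CLP against MPPFL+, DN1, DN2, DN3 and CLP against GMP. The F-test called 29 to 32 members. With the replicate block 14 of the 80 calls were lost. Dim genes such as Ogg1 and Fancc limit what can be measured.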
